A study of Mus musculus with 8 samples.

Results

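The genes described are 10 markers of monocytes and macrophages, among them the 3 chains of complement C1q: C1qa, C1qb, C1qc, Ly6c2, Cd68, Adgre1, Csf1r, Lyz2, Fcgr1 and Ms4a7. They are 10 of the 51912 gene identifiers counted in each library, were taken by name after the sequencing lanes of a library had been summed, and were compared between the groups A20KIKO and A20WT. RNA was sequenced from epidermal sheets of mouse ear skin, 4 A20KIKO and 4 A20WT libraries, each from a different animal. Both groups carried A20F/F, conditional alleles of Tnfaip3 (which encodes A20, a restraint on NF-kB signalling), were studied at 8 weeks of age, received 1 mg of tamoxifen on each of 2 days and were killed 7 days after the first dose. The groups differed in Krt5-CreERT2, a Cre recombinase that tamoxifen switches on and that is made under the promoter of Krt5, a basal keratinocyte keratin. A20KIKO animals carried it and A20WT animals did not, so the presence of the Cre and the induced deletion cannot be told apart. By this design the deletion is in keratinocytes, and the markers below belong mainly to other cells that come off with the sheet.

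Monocytes are blood cells that enter inflamed tissue and can become macrophages or dendritic cells there. Macrophages are the main source of C1q, a secreted protein built from the A, B and C chains, which binds immune complexes and dying cells and starts the classical complement pathway with the proteases C1r and C1s. Healthy epidermis holds Langerhans cells, resident relatives of macrophages that depend on the receptor Csf1r and can also carry Cd68 and Adgre1, so these last 3 markers are not limited to monocytes and macrophages.

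Summed counts per library ranged from 40451075 to 89624373. Levels are given as CPM, the count scaled to 1000000 counts per library with a normalisation factor, and a log2 change is A20KIKO minus A20WT. The targeted gene, Tnfaip3, was 4.48-fold higher in libraries labelled A20KIKO (74.0 ± 17.3 CPM) than in A20WT libraries (16.5 ± 2.65 CPM; SD, n = 4 each; edgeR adjusted p = 8.36e-05). Its count covers all exons, so it does not test the deletion. As a check of the tissue, keratinocyte markers summed to 46685 to 60713 CPM in A20KIKO and 50513 to 71573 CPM in A20WT, and Cd207, the Langerhans cell lectin, had 72.8 ± 6.32 and 63.7 ± 4.70 CPM (SD, n = 4 each). A gene was called higher or lower where its adjusted p was under 0.05.

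Of the 10 markers, 8 had enough counts to be tested. The 3 C1q chains and Ly6c2 were called higher in A20KIKO, 4 of 8, and 0 were called lower. Among all 16512 tested genes 3.49% were called, 2.43% higher and 1.06% lower. Among the 8 tested markers, these 4 were also the ones whose lowest A20KIKO library lay above the highest A20WT library, which was the case for 5.78% of all tested genes. At an unadjusted p under 0.05, 6 of 8 were higher, against 8.48% of all genes. Cd68, Adgre1, Csf1r and Lyz2 did not pass the test. Fcgr1 and Ms4a7 were not tested, as each reached the minimum of the count filter in 3 A20KIKO and 0 A20WT libraries. The filter needed 4 libraries, and A20KIKO mouse 2 fell short for both genes. The median log2 change of the 8 tested markers was 2.12, beside -0.01 over all tested genes. In bulk sheets, a change in the number of cells of a type and a change in RNA per cell cannot be told apart, and this holds for each marker below.

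**Figure D1:**
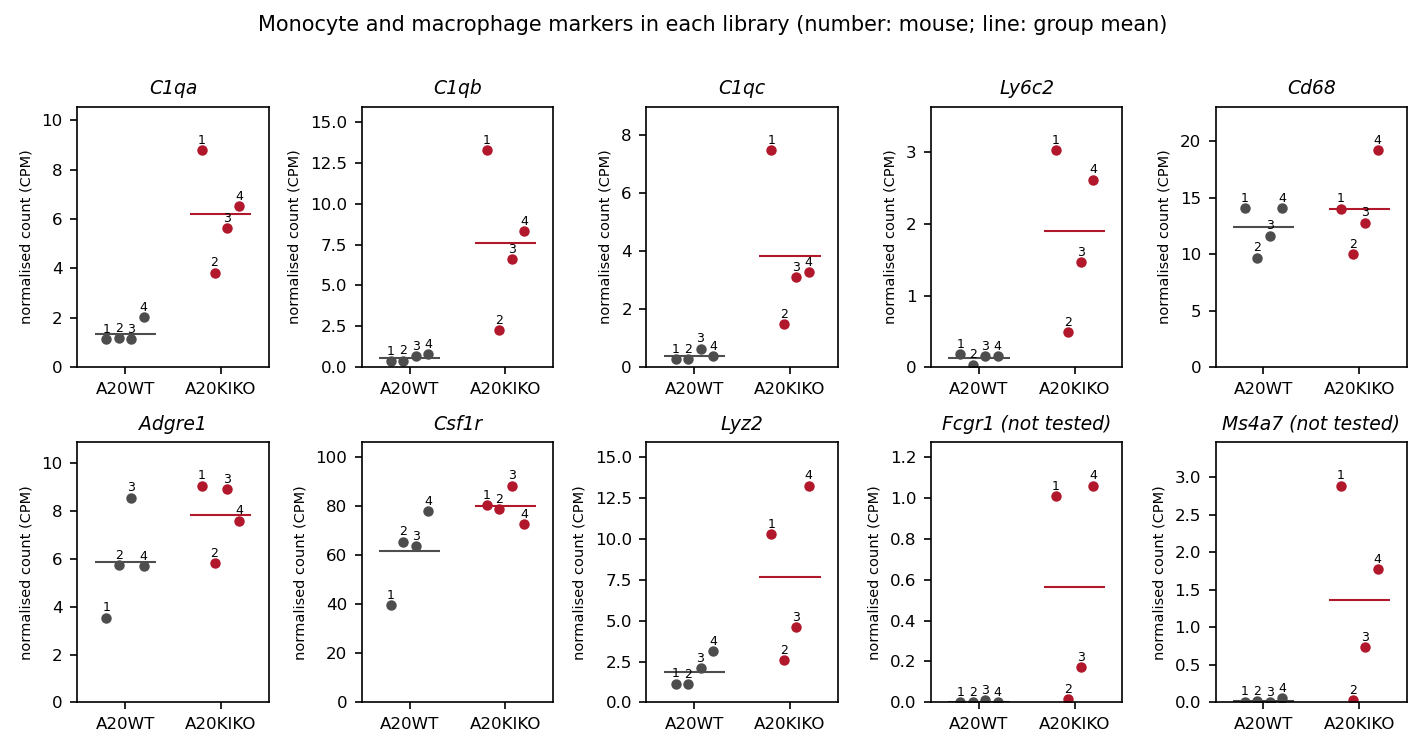
Normalised counts (CPM, y axis, a separate scale from 0 in each panel) of the 10 markers in the 4 A20WT (grey) and 4 A20KIKO (red) libraries; each point is a library, its number is the mouse and the line is the group mean. The A20KIKO points lie above all A20WT points for C1qa, C1qb, C1qc and Ly6c2, and A20KIKO mouse 2 is the lowest A20KIKO point in 9 of the 10 panels.

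Stretches of DNA just upstream of 3 of the markers are shown, taken from those that were low in A20WT and higher in most A20KIKO libraries. C1qc, Lyz2 and Ms4a7 had that pattern too and are not shown, and Lyz2 and Ms4a7 held none of the motifs searched below. They are the 250 bases before the RefSeq start of each gene in GRCm38.p6, read 5′ to 3′ on the minus strand, from which all 3 genes are transcribed. The capitals mark letters that match a core motif of the myeloid factor PU.1 (GAGGAA, or TTCCTC on the other strand) and, in Fcgr1, the interferon-gamma activated sequence (TTCNNNGAA).
C1qb, chr4:136886201-136886450: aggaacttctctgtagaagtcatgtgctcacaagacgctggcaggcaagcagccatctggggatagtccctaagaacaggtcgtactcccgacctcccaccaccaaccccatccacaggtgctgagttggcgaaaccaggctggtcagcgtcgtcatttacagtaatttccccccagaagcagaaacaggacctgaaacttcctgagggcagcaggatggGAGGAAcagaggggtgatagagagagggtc
Ly6c2, chr15:75111972-75112221: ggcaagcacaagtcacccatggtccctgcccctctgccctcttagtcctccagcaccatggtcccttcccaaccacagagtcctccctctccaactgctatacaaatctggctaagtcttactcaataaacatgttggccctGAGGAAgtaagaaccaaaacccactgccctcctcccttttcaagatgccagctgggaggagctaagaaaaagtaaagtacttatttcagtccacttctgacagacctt
Fcgr1, chr3:96293970-96294219: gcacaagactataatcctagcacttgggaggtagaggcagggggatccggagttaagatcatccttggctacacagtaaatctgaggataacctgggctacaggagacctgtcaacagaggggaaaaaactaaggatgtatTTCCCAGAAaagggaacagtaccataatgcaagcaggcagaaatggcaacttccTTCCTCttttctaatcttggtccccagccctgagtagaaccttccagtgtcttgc
The RefSeq table held such a stretch for 7 of the 10 markers, C1qb, C1qc, Ly6c2, Cd68, Lyz2, Fcgr1 and Ms4a7, and each was searched on both strands. GAGGAA was present in 5 of 7 (C1qb, C1qc, Ly6c2, Cd68 and Fcgr1) and in 23.25% of 32851 windows of the same length over all genes. It began 30 bases before the start in C1qb, 108 in Ly6c2 and 55 in Fcgr1. TTCNNNGAA was present in 1 of 7, 109 bases before the start of Fcgr1, and in 7.02% of all windows. The core of the interferon-stimulated response element, a pair of GAAA repeats with 2 bases between them, was in 0 of 7 and in 2.98% of all windows. A match describes letters and shows no binding, and no matches of different motifs overlapped in the stretches shown.

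The C1q chains were higher in every A20KIKO library than in any A20WT library. Their genes lie side by side on chromosome 4 (minus strand, GRCm38): C1qb (ENSMUSG00000036905) at 136880129 to 136886187, C1qc (ENSMUSG00000036896) at 136889804 to 136893065 and C1qa (ENSMUSG00000036887) at 136895917 to 136898803. C1qa, the A chain, had 8.78, 3.82, 5.64 and 6.51 CPM in A20KIKO mice 1 to 4 and 1.13, 1.17, 1.12 and 2.02 CPM in A20WT mice 1 to 4. The lowest A20KIKO library, mouse 2, lay above the highest A20WT library, mouse 4. The mean was 6.19 ± 2.06 CPM against 1.36 ± 0.439 CPM (SD, n = 4 each), 4.56-fold higher (edgeR adjusted p = 0.00184, log2 change 2.19, SE 0.29).

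C1qb, the B chain, had 13.3, 2.25, 6.59 and 8.32 CPM in A20KIKO mice 1 to 4 and 0.392, 0.396, 0.661 and 0.776 CPM in the A20WT mice. Its spread within A20KIKO was wider than that of C1qa, with the highest library 5.89 times the lowest, against 2.30 times for C1qa. The groups did not overlap, and the fitted change was 13.7-fold (edgeR adjusted p = 0.00227, log2 change 3.77, SE 0.50). C1qc, the C chain, had 7.47, 1.47, 3.11 and 3.27 CPM in the A20KIKO mice and 0.265, 0.270, 0.638 and 0.373 CPM in the A20WT mice. Here too mouse 1 was highest and mouse 2 lowest among A20KIKO, both above all A20WT libraries. The change was 9.82-fold (edgeR adjusted p = 0.00273, log2 change 3.30, SE 0.49). The 3 chains summed to 29.5, 7.55, 15.3 and 18.1 CPM in A20KIKO mice 1 to 4 and to between 1.79 and 3.17 CPM in A20WT.

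The make-up of the C1q signal also varied between libraries. Per kilobase of exon, C1qb was the highest of the 3 chains in A20KIKO mice 1, 3 and 4, with 49.7%, 46.3% and 49.0% of their summed level. C1qa was highest in A20KIKO mouse 2 (56.5%) and in all 4 A20WT libraries (53.6 to 69.1%), so in the A20KIKO library with the least C1q the share of C1qa lay within the A20WT range. The log2 ratio of C1qb to C1qa was 0.10 ± 0.59 in A20KIKO and -1.26 ± 0.35 in A20WT (SD, n = 4 each), a difference of 1.37. That difference did not pass a two-sided exact permutation test over the libraries (p = 0.0571, or 0.143 after Benjamini-Hochberg adjustment over the 3 chain pairs; the smallest possible p is 0.0286). The pairs C1qc to C1qa and C1qb to C1qc differed by 0.92 (exact permutation p = 0.114) and 0.44 (exact permutation p = 0.143). These ratios were compared after the chain values had been seen.

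**Figure D2:**
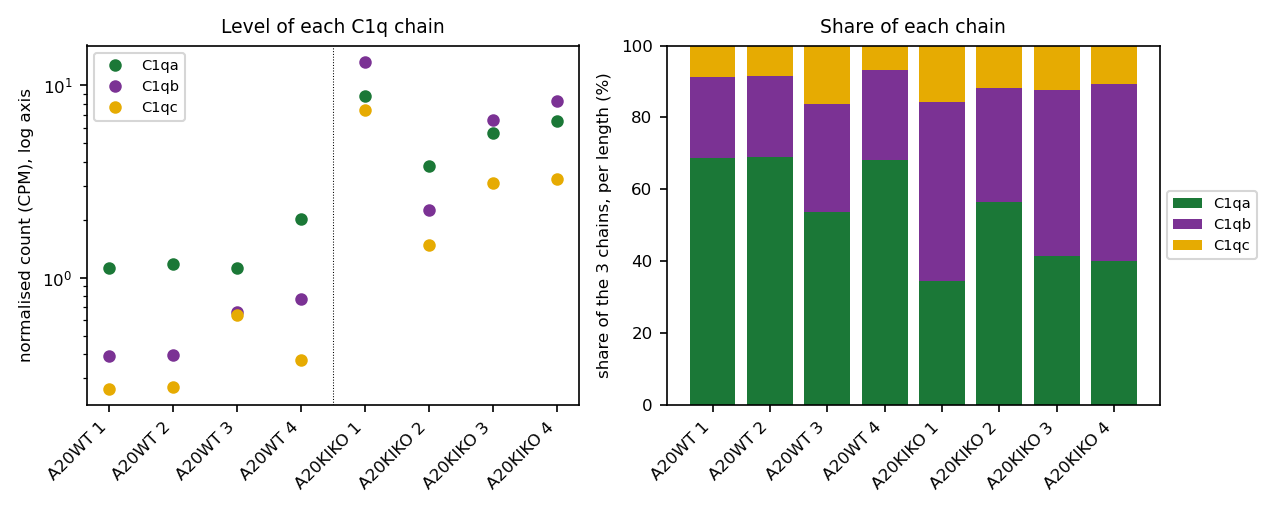
Left, CPM of C1qa, C1qb and C1qc (log axis) in each library; right, the share of each chain in their summed level per kilobase of exon (%), stacked to 100. C1qa is the largest share in all A20WT libraries and in A20KIKO mouse 2, and C1qb in A20KIKO mice 1, 3 and 4.

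Ly6c2 encodes a form of Ly6C, the surface antigen that marks inflammatory blood monocytes. The gene (ENSMUSG00000022584) lies on chromosome 15 at 75108158 to 75111970. It had 3.03, 0.485, 1.47 and 2.62 CPM in A20KIKO mice 1 to 4 and 0.184, 0.0360, 0.151 and 0.155 CPM in A20WT mice 1 to 4. All A20WT libraries were low and none reached A20KIKO mouse 2. The change was 14.0-fold (edgeR adjusted p = 0.00334, log2 change 3.81, SE 0.59). Ly6c2 passed the count filter through 4 A20KIKO and 3 A20WT libraries, so its level in A20WT rests on few counts.

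Ly6c2 has a near-identical neighbour, Ly6c1, and reads from the pair can be split between them. Over their reference transcripts 97.6% of bases agree (802 of 822). Ly6c1 was the more abundant, at 29.9 ± 3.84 CPM in A20KIKO and 17.2 ± 4.32 CPM in A20WT (SD, n = 4 each; log2 change 0.80, SE 0.17, edgeR adjusted p = 0.0221). Ly6c2 made up 1.62 to 8.15% of the counts of the pair in A20KIKO and 0.245 to 1.06% in A20WT, ranges that did not overlap. With any library except A20KIKO mouse 2 or 3 or A20WT mouse 1 left out, Ly6c1 was no longer called (adjusted p 0.0550 to 0.0864), while that for Ly6c2 was kept in each of those fits.

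Csf1r, the receptor for Csf1 and Il34 that macrophages and Langerhans cells need to survive, was abundant in both groups. It lies on chromosome 18 at 61100598 to 61132149 (ENSMUSG00000024621). It had 80.4, 78.8, 88.4 and 72.8 CPM in A20KIKO mice 1 to 4 and 39.5, 65.6, 63.7 and 77.9 CPM in A20WT mice 1 to 4. A20WT mouse 4 lay within the A20KIKO range and A20WT mouse 1 was well below the rest. The groups were not separated by the test (edgeR adjusted p = 0.324, log2 change 0.38, SE 0.17). Csf1r shares 873 exon bases with Hmgxb3 on the opposite strand, and the kit does not keep strand, so reads from that stretch cannot be assigned to either gene.

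Adgre1 encodes F4/80, a surface receptor of many mouse macrophages and of Langerhans cells (ENSMUSG00000004730, chromosome 17, 57358691 to 57483527). It had 9.07, 5.82, 8.92 and 7.61 CPM in A20KIKO mice 1 to 4 and 3.55, 5.75, 8.57 and 5.70 CPM in the A20WT mice. The groups overlapped, with A20WT mouse 3 above A20KIKO mice 2 and 4 (edgeR adjusted p = 0.479, log2 change 0.41, SE 0.25).

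Cd68, a glycoprotein of late endosomes and lysosomes that phagocytes hold in quantity, lies on chromosome 11 at 69664213 to 69666153 (ENSMUSG00000018774). It had 14.0, 9.99, 12.8 and 19.2 CPM in A20KIKO mice 1 to 4 and 14.1, 9.70, 11.6 and 14.1 CPM in the A20WT mice. Only A20KIKO mouse 4 exceeded the A20WT range, and none fell below it. The log2 change was 0.18 (SE 0.20, edgeR adjusted p = 0.753), and without that library it was -0.012.

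Lyz2 encodes the lysozyme of macrophages, monocytes and neutrophils (ENSMUSG00000069516, chromosome 10, 117277331 to 117282321). It had 10.3, 2.60, 4.58 and 13.3 CPM in A20KIKO mice 1 to 4 and 1.141, 1.135, 2.09 and 3.12 CPM in the A20WT mice. A20KIKO mice 1, 3 and 4 were above all A20WT libraries, and mouse 2 lay below A20WT mouse 4. The fitted change of 4.12-fold was not called (edgeR adjusted p = 0.0891, log2 change 2.04, SE 0.54). It passed without A20KIKO mouse 2 (adjusted p = 0.0110) and in DESeq2 with all libraries (adjusted p = 0.0164). The close copy Lyz1 (95.8% of aligned transcript bases identical) had few counts, and Lyz2 made up 93.8% or more of the counts of the pair in every library.

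Fcgr1 encodes the high-affinity receptor for IgG, found on macrophages and on dendritic cells that arise from monocytes (ENSMUSG00000015947, chromosome 3, 96282909 to 96293969). It had 86, 1, 7 and 93 counts in A20KIKO mice 1 to 4, which is 1.01, 0.0173, 0.172 and 1.06 CPM. A20WT mouse 3 had 1 count and the other 3 A20WT libraries had 0. The signal was therefore in A20KIKO mice 1 and 4, with little in mice 2 and 3. Pooled over libraries the rate was 201 times that in A20WT (95% exact interval 35.7 to 7997), which covers counting error alone and takes counts as independent. Only 3 libraries reached the minimum of the count filter where 4 were needed. Fitted without that filter the edgeR adjusted p was 0.00993. With a library left out the filter needs only 3 libraries, which Fcgr1 meets through A20KIKO alone. Such fits therefore enter only the counts of members called in the last section and are not used as support. Fcgr1 was called without A20KIKO mouse 2 and was not called without any 1 of the A20WT libraries. No conclusion is drawn from either outcome.

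Ms4a7, a membrane protein of the MS4A family used as a macrophage marker (ENSMUSG00000024672, chromosome 19, 11321039 to 11336146), was patterned like Fcgr1. It had 247, 2, 30 and 156 counts in A20KIKO mice 1 to 4, which is 2.89, 0.0346, 0.735 and 1.78 CPM. The A20WT mice had 1, 1, 0 and 4 counts. A20KIKO mouse 2 lay within the A20WT range of up to 0.0621 CPM, while the other 3 were above it. The pooled rate was 78.1 times that in A20WT (95% exact interval 35.6 to 214, counting error alone). Without the count filter the edgeR adjusted p was 0.139. As for Fcgr1, fits with a library left out admit Ms4a7 only through its A20KIKO libraries and enter only those counts. Ms4a7 too was called without A20KIKO mouse 2 and not called without any 1 of the A20WT libraries, and no conclusion is drawn.

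The markers were also ordered by level per kilobase of exon. In A20WT, Csf1r (10.7 ± 2.78 CPM per kilobase) and Cd68 (9.83 ± 1.68) stood highest, with ranges that overlapped each other. Adgre1 (1.82), Lyz2 (1.42) and C1qa (1.31) followed with overlapping ranges, then C1qb (0.511) and C1qc (0.200), which did not overlap each other, and Ly6c2, Ms4a7 and Fcgr1 were at 0.0480 or less. In A20KIKO, Csf1r (13.9 ± 1.11) and Cd68 (11.1 ± 3.06) were again first and overlapped. C1qb (6.99 ± 4.18), C1qa (5.95 ± 1.98) and Lyz2 (5.83 ± 3.75) came next by mean and could not be ordered within their spread. The range of each also overlapped that of Cd68. Adgre1 (2.43 ± 0.466) and C1qc (1.98 ± 1.33) had lower means (SD, n = 4 in each case), with ranges that overlapped each other. The range of Adgre1 also overlapped those of C1qb and Lyz2, and the range of C1qc those of C1qb, C1qa and Lyz2.

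The lowest place among the A20KIKO animals was shared by most markers, while the highest varied. Mouse 2 had the lowest A20KIKO value for 9 of the 10 markers, the exception being Csf1r, which was lowest in mouse 4. Mouse 1 was highest for 6 markers, mouse 4 for 3 (Cd68, Lyz2 and Fcgr1) and mouse 3 for 1 (Csf1r). The highest A20KIKO library exceeded the lowest 1.21 times for Csf1r, 1.56 times for Adgre1, 1.92 times for Cd68, 5.11 times for Lyz2 and 6.25 times for Ly6c2.

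The general content of leukocyte RNA was set beside these values. Of the 10 pan-leukocyte markers, 0 were called (edgeR; 4 had an unadjusted p under 0.05 and 1 was called by DESeq2), with a median log2 change of 0.42 and a summed level of 240 to 399 CPM in A20KIKO and 181 to 266 CPM in A20WT. Among them Lcp1 (edgeR adjusted p = 0.357, log2 change 0.43) and Laptm5 (0.34, adjusted p = 0.200) had the highest levels, and Ptprc, the CD45 gene, had a log2 change of 0.40 (adjusted p = 0.424). Relative to the mean log2 level of these pan-leukocyte genes in the same library, C1qa was higher in A20KIKO by 1.67, C1qb by 3.04, C1qc by 2.60 and Ly6c2 by 2.97, with no overlap between the groups. On the same scale Csf1r differed by -0.06 and Adgre1 by -0.01, both with overlap, and Lyz2 by 1.40 with overlap. Cd68 differed by -0.32, with all A20KIKO libraries below all A20WT libraries (-0.53 ± 0.083 against -0.22 ± 0.34, SD, n = 4 each). Fcgr1 differed by 2.89 without overlap and Ms4a7 by 3.45 with overlap, both on few counts. For Fcgr1, A20KIKO mouse 2 held 1 count, as did A20WT mouse 3, so that lack of overlap rests on single counts. The share of all genes that separate on this relative scale was not computed, so the overlaps have no background here. The pan-leukocyte mean was itself 0.97 log2 units above A20WT in A20KIKO mouse 4, against 0.14 to 0.46 in the other A20KIKO mice.

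The other genes of these cells were described by list. The counts called stand beside 2.43% of all tested genes called higher and 1.06% called lower. Of 38 further monocyte and macrophage markers 27 were tested, 4 were called higher and 0 lower, and the median log2 change was 0.62. The change was positive for 22 of the 27. At an unadjusted p under 0.05, 12 were higher and 2 lower, and DESeq2 called 7 higher and 1 lower. The 2 lower at an unadjusted p under 0.05 were Maf (-0.50, edgeR adjusted p = 0.112) and Lgals3 (-0.34, adjusted p = 0.273). Cd86, a costimulatory molecule of antigen-presenting cells, rose to 8.49 ± 1.61 CPM in A20KIKO against 4.40 ± 0.901 CPM in A20WT (SD, n = 4 each; edgeR adjusted p = 0.0188, log2 change 0.95). Aif1, a cytoskeletal protein of macrophages, had a log2 change of 1.89 (adjusted p = 0.0317), and Ms4a6b, a relative of Ms4a7, one of 2.90 (adjusted p = 0.0418) with groups that overlapped. The count of 4 fell to 1 without A20KIKO mouse 1 or mouse 4, to 2 without A20KIKO mouse 3 or A20WT mouse 1, 3 or 4, and rose to 12 without A20KIKO mouse 2. The call for Cd86 was lost without A20KIKO mouse 1 or 4 or A20WT mouse 3 (adjusted p 0.0575 to 0.0790), and those for Aif1 (0.0531 to 0.133) and Ms4a6b (0.0631 to 0.1497) were lost without any library except A20KIKO mouse 2. Siglec1 and Vsig4, markers of tissue macrophages, had 0 counts in all 8 libraries, and Trem2, a lipid receptor of macrophages, had 0 counts in every A20WT library and 0.725, 0.0173, 0.490 and 0.251 CPM in A20KIKO mice 1 to 4. Trem2 was chosen after its values were seen.

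Fc receptors carry the signal of bound antibody through ITAM adaptors and kinases. Of the 9 genes of this list 8 were tested and 2 were called higher, with a median log2 change of 0.65. Fcgr2b, the inhibitory IgG receptor, rose from 4.05 ± 0.519 to 7.87 ± 1.80 CPM (edgeR adjusted p = 0.0161, log2 change 0.96, SE 0.19). All A20KIKO libraries were above all A20WT libraries for this gene. The count of 2 fell to 0 without A20KIKO mouse 1 and to 1 without A20KIKO mouse 4 or any A20WT library. The call for Fcgr2b was lost without A20KIKO mouse 1 (adjusted p = 0.0601).

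The ligands of Csf1r moved in opposite directions. Csf1, the growth factor of monocyte-derived macrophages, had 50.2, 36.7, 41.7 and 58.1 CPM in A20KIKO mice 1 to 4 and 13.8, 23.5, 19.1 and 26.5 CPM in A20WT mice 1 to 4 (edgeR adjusted p = 0.00686, log2 change 1.17, SE 0.20). Il34, the keratinocyte-made ligand that Langerhans cells depend on, had 76.0, 83.8, 72.0 and 79.9 CPM in the A20KIKO and 128.7, 123.8, 112.1 and 114.2 CPM in the A20WT mice (adjusted p = 0.00396, log2 change -0.62, SE 0.10). Neither gene overlapped between the groups. Ccl2, the chemokine that draws monocytes through Ccr2, rose from 0.217 ± 0.0984 to 1.73 ± 0.848 CPM (adjusted p = 0.00333, log2 change 2.96, SE 0.46), and Ccl6, a chemokine of myeloid cells, from 26.1 ± 1.18 to 44.0 ± 5.75 CPM (adjusted p = 0.00478, log2 change 0.75, SE 0.12). Of the 12 genes of this list 8 were tested, 3 were called higher and 1 lower, with a median log2 change of 0.88.

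C1r and C1s, the proteases that join C1q in the C1 complex, rose with it. C1ra had 14.2, 6.94, 7.13 and 13.5 CPM in A20KIKO mice 1 to 4 and 1.63, 0.432, 1.496 and 0.668 CPM in the A20WT mice (edgeR adjusted p = 0.00229, log2 change 3.29, SE 0.43). C1s1 had 33.0, 14.1, 22.2 and 29.6 CPM in the A20KIKO and 0.749, 1.153, 2.03 and 3.06 CPM in the A20WT mice (adjusted p = 0.00273, log2 change 3.83, SE 0.47). A20KIKO mice 1 and 4 were highest and mouse 2 lowest for both proteases. C3, on which the pathways of complement converge, rose from 1.74 ± 0.509 to 4.97 ± 1.18 CPM (adjusted p = 0.00829, log2 change 1.52, SE 0.27). Of the 14 complement partners of C1q 9 were tested, 3 were called higher and 0 lower, with a median log2 change of 0.68, and 5 were called without A20KIKO mouse 2. The C1q, C1r and C1s genes can be made by different cells, and which cells held these transcripts was not tested.

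**Figure D3:**
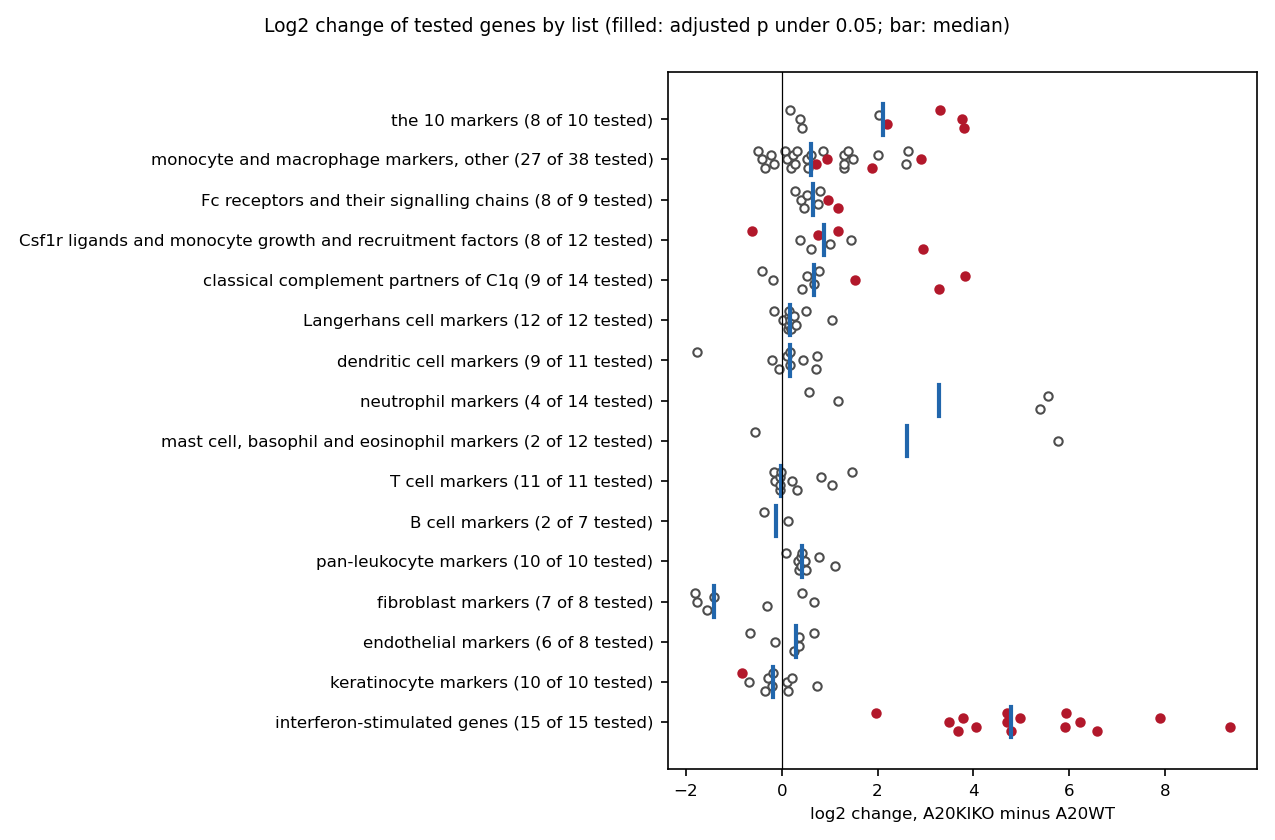
Log2 change (x axis, A20KIKO minus A20WT) of each tested gene in the 10 markers and in 15 lists; filled points have an edgeR adjusted p under 0.05, open points do not, and the blue bar is the list median. The C1q chains and Ly6c2 lie at 2.19 to 3.81, all 15 interferon-stimulated genes are filled, and no Langerhans cell, dendritic cell, T cell or pan-leukocyte marker is.

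Markers of other leukocytes were read as a background to the monocyte and macrophage markers. The Langerhans cell markers summed to 3393 to 3778 CPM in A20KIKO and 2791 to 3642 CPM in A20WT, and 0 of 12 were called (edgeR; 2 had an unadjusted p under 0.05 in the higher direction, 2 were called by DESeq2), with a median log2 change of 0.17. The change was positive for 11 of the 12, and for 3 all A20KIKO libraries lay above all A20WT libraries (5.78% of all tested genes). Their mean log2 level, centred on A20WT, was 0.14 to 0.37 in A20KIKO libraries and -0.10 to 0.10 in A20WT libraries. Cd74 and H2-Ab1, the most abundant of them, had log2 changes of 0.13 (adjusted p = 0.668) and 0.16 (0.631), and Cd207 had 0.19 (0.431). Of the 11 dendritic cell markers 9 were tested and 0 called (edgeR; 1 unadjusted p under 0.05 and 1 DESeq2 call in each direction), with a median log2 change of 0.17 and a summed level of 21.2 to 28.6 CPM against 15.1 to 31.0 CPM. Clec9a had 0 counts in all 8 libraries, and Ccl22 (adjusted p = 0.897, log2 change 0.18) and Itgax (0.72, adjusted p = 0.0623) had the highest means. T cell markers summed to 176 to 182 CPM against 157 to 194 CPM, with 0 of 11 called by edgeR or DESeq2. Their median was -0.02, and 5 of the 11 had a positive log2 change. The most abundant were Cd3g (-0.02, edgeR adjusted p = 0.967) and Nkg7 (-0.15, adjusted p = 0.693). At an unadjusted p under 0.05, 3 were higher and 0 lower: Cd8a (1.46, adjusted p = 0.288), Trac (0.83, 0.208) and Trbc2 (0.31, 0.212). B cell markers summed to 6.23 to 7.37 CPM against 5.30 to 7.73 CPM with 0 of 2 tested genes called (edgeR; 0 unadjusted p under 0.05, 0 by DESeq2), a median of -0.12, Ighm at 0.13 (adjusted p = 0.814) and Pax5 at 0 counts throughout.

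A20KIKO mouse 4 stood apart in genes of granulocytes. The neutrophil markers summed to 3026 CPM in that library, to 51.9 CPM in the lowest A20KIKO library and to 39.2 to 68.5 CPM in A20WT. S100a9 and S100a8, which neutrophils, monocytes and inflamed keratinocytes can all make, had 1899 and 947 CPM in mouse 4, against 10.4 to 29.8 and 2.70 to 18.6 CPM in the other A20KIKO mice (log2 changes 5.40 and 5.57, edgeR adjusted p = 0.324 and 0.329). Of 14 neutrophil markers 4 were tested and 0 called (edgeR; 1 unadjusted p under 0.05, 0 by DESeq2; median log2 change 3.29), Elane had 0 counts in all 8 libraries and Ly6g had 0 in every A20WT library. The mast cell, basophil and eosinophil markers summed to 1.61 to 27.9 CPM in A20KIKO, highest in mouse 4, and to 0.916 to 1.60 CPM in A20WT. Of these 12 genes 2 were tested and 0 called (edgeR; 1 unadjusted p under 0.05, 0 by DESeq2; median 2.61): Hdc, the histamine-forming enzyme, had a log2 change of 5.77 (adjusted p = 0.184) and Mrgprb2, a mast cell receptor, one of -0.55 (adjusted p = 0.472), while Ms4a2 had 0 counts throughout. The part of these cells in the level of Lyz2, Cd68 or Fcgr1, each highest in mouse 4, was not tested. C1qa, C1qb, C1qc and Ly6c2 were called in every fit with 1 library left out (adjusted p of 0.0305 or less), also without mouse 4.

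Markers of dermal cells that could come off with the sheet were also read. The fibroblast markers summed to 34.0 to 55.6 CPM in A20KIKO and 50.9 to 75.8 CPM in A20WT. These sums lay above those of the 3 C1q chains (7.55 to 29.5 and 1.79 to 3.17 CPM). By edgeR 0 of 7 tested genes were called, with a median log2 change of -1.41 and 2 positive changes. DESeq2 called 3 lower. The most abundant were Fbln1 at 0.67 (edgeR adjusted p = 0.198) and Dcn at -0.31 (adjusted p = 0.552). At an unadjusted p under 0.05, 1 was higher and 4 lower. The lower ones were Col1a1 (-1.56), Col1a2 (-1.77), Col3a1 (-1.81) and Lum (-1.41), at edgeR adjusted p of 0.0698 to 0.315. The endothelial markers summed to 2.21 to 5.76 CPM against 2.01 to 5.0 CPM, with 0 of 6 tested genes called (edgeR; 0 unadjusted p under 0.05, 0 by DESeq2), a median of 0.30, Pecam1 at 0.67 (adjusted p = 0.422) and Plvap at 0.25 (adjusted p = 0.893). Of the 10 keratinocyte markers 1 was called, Krt5, which was lower in A20KIKO (log2 change -0.83, edgeR adjusted p = 0.00273). The list median was -0.19, with 0 higher and 2 lower at an unadjusted p under 0.05, and DESeq2 called 2 lower. Whether the cells that carried the 10 markers lay in the epidermis or in attached dermis was not tested.

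Interferon-stimulated genes were higher in every A20KIKO library and ordered the A20KIKO mice as the C1q chains did, with mouse 1 highest, then 4, 3 and 2. All 15 were called higher, with a median log2 change of 4.79, among them Xaf1 (3.78, edgeR adjusted p = 4.12e-05), Usp18 (4.05, 4.12e-05), Isg15 (4.79, 8.36e-05), Ifit1 (7.89, 0.000514) and Irf7 (3.48, 0.00126). The list's mean level above A20WT was 5.89, 3.97, 4.43 and 5.55 log2 units in A20KIKO mice 1 to 4, and that of the C1q chains was 3.85, 1.83, 2.88 and 3.08. The complement partners were at 1.39, 1.10, 0.98 and 1.32, and the pan-leukocyte genes at 0.46, 0.14, 0.31 and 0.97. The Langerhans cell markers were at 0.37, 0.14, 0.18 and 0.34. Mouse 2 was also the lowest for the last 2 of these lists. The Langerhans cell markers, of which 0 were called, ordered all 4 A20KIKO mice as the C1q chains did, so this order was not particular to interferon-stimulated genes. The part of interferon in the C1q levels was not tested.

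**Figure D4:**
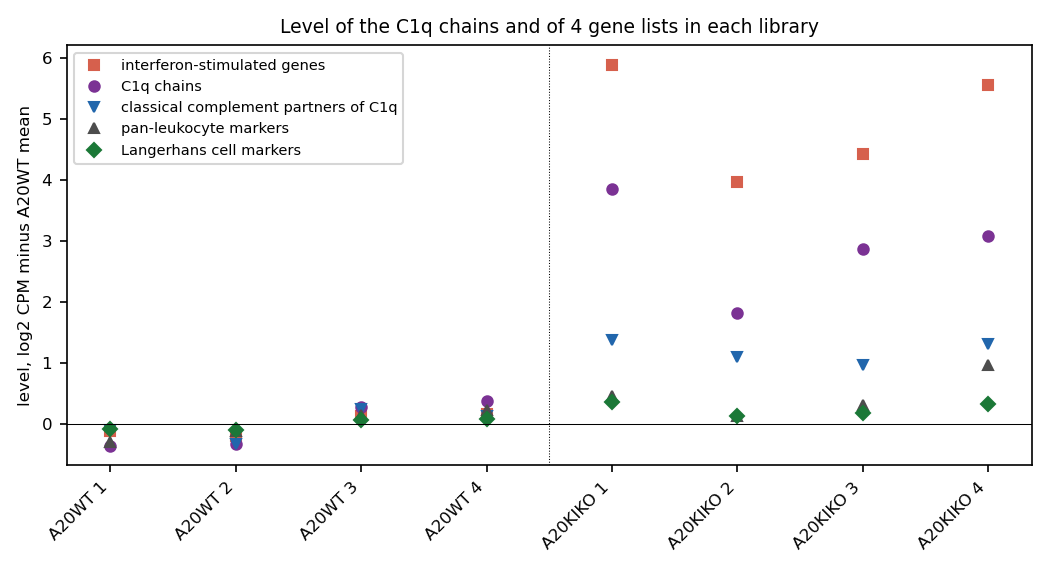
Mean log2 level of the C1q chains and of 4 lists in each library (y axis, log2 CPM minus the A20WT mean). The C1q chains reach 3.85 in A20KIKO mouse 1 and 1.83 in mouse 2, below the interferon-stimulated genes and above the pan-leukocyte and Langerhans cell markers in each A20KIKO library.

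The tested genes with the profile most like the mean of the 3 C1q chains over the 8 libraries were Sp100, Herc6, 4930512H18Rik, Gbp2 and Gbp6. Likeness was the root mean square difference of log2 levels centred on A20WT, which was 0.26, 0.33, 0.34, 0.34 and 0.37 for these 5 genes. The chains themselves differed from their own mean by 0.27 (C1qc), 0.46 (C1qb) and 0.61 (C1qa), so Sp100 was about as near to the mean as C1qc. For the mean of the other 7 markers the nearest genes included Uba7 (0.25), Aif1 (0.28), A230050P20Rik (0.31) and H2-Q7 (0.34). Among pairs of markers, Adgre1 and Csf1r were the closest (0.28), followed by C1qb with C1qc (0.44) and C1qb with Ly6c2 (0.47), and Cd68 with Ms4a7 was the farthest (3.00).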

How the data were processed

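Per the labels, RNA of epidermal sheets was copied with the SMART-Seq v4 kit and made into Nextera libraries, which keep neither strand nor molecular identifiers. The authors deposited unnormalised counts for Ensembl genes, in 2 lane columns per library, which were summed. In the submitters' processing notes the tools are HTSeq 0.6.1p1, Picard 1.139 and STAR 2.4.2a, and the builds GRCh38 and GRCm38.p5. The annotation release is not given in the sources used here, nor are the counting options. Counts per library exceed the mean number of reads in the labels, so a count is not taken as an independent fragment and counting intervals may be too narrow.

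Of 51912 identifiers 51633 matched a symbol, and positions are from GENCODE M21 (GRCm38). In R 4.3.3, edgeR 4.0.16 kept 16512 genes with filterByExpr (minimum count 10, total 15). They were scaled by TMM and tested with the robust quasi-likelihood model with group as its only term, two-sided, with Benjamini-Hochberg adjustment over all tested genes. The SE was taken from the F statistic (the size of the log2 change over the root of F). Log2 levels use a prior count of 2. The biological coefficient of variation was 26.3%. The scripts were tested on simulated counts.

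The members and the lists were chosen with earlier results of these data known, so nothing here is independent support for them. The text names the 10 members, Tnfaip3, Ptprc, Cd207, Ly6c1 and Lyz1. Of each list it names up to 5 called genes with the smallest adjusted p or, with none called, the 2 with the highest mean, and it names the 5 genes most like the members. Markers at 0, and some at an unadjusted p under 0.05, are named outside this rule to describe the lists. Some genes under this rule are not reported here.

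Alternatives tried were DESeq2 1.42.0, limma-voom (limma 3.58.1) with and without sample weights, other size factors, a stricter filter (5 CPM in 4 libraries) or none, non-robust dispersions, each lane alone, thinned counts, a replicate block, and each library left out in turn. Replicate numbers name mice, and libraries with the same number did not deviate together in every pair. Python 3.11.15, pandas 2.3.3, SciPy 1.17.1 and Biopython 1.88 were used for the rest.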

Additional observations from a re-analysis of the deposited data

Results flagged for a closer look

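In 138 groups of 4 values looked at, 8 held a library far from the other 3 by Dixon's criterion, where chance alone gives about 1 in 20 groups. Of the members, C1qa was 2.02 CPM in A20WT mouse 4 against 1.12 to 1.17 CPM in the other A20WT libraries, and Fcgr1 was 0.0116 CPM, a single count, in A20WT mouse 3 against 0 in the others. A20KIKO mouse 4 stood apart in S100a9 (1899 CPM against 10.4 to 29.8), S100a8 (947 CPM against 2.70 to 18.6), Hdc (25.8 CPM against 0.381 to 1.53) and the fibroblast gene Fbln1 (36.8 CPM against 18.3 to 20.8). Ly6c1 was 23.6 CPM in A20WT mouse 1 against 14.5 to 15.8 CPM in the other A20WT libraries. The dendritic cell list had a level of 0.48 log2 units in A20WT mouse 4 against -0.20 to -0.12 in the others.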

How the results depend on the processing

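The number of genes called, 576, was 374 with the stricter filter, 1133 with DESeq2, 1112 with limma-voom and sample weights, and 348 to 619 when each library was left out (348 without A20KIKO mouse 1, 355 without A20WT mouse 3). With the replicate number as a block it was 551, of which 460 were shared, the members called were 5 (Lyz2 added, adjusted p = 0.0148) and the list genes called 31. Same-numbered libraries correlated at 0.04, 0.06, -0.01 and 0.24, not every library correlated best with its own number, and the numbers were not taken as pairs. The members called, 4, ranged from 4 to 7 with a library left out. They were 7 without A20KIKO mouse 2, which added Lyz2 and also Fcgr1 and Ms4a7, both of which then passed the count filter only through the 3 A20KIKO libraries where they are high, and 0 under the stricter filter, which kept only 3 members for testing. The list genes called, 29 of 140, were 46 with DESeq2 and 24 to 47 with a library left out (47 without A20KIKO mouse 2). C1qa, C1qb, C1qc and Ly6c2 were called in each of the 20 alternatives in which they were tested, with log2 changes of 1.97 to 2.44, 3.36 to 4.07, 2.75 to 3.70 and 3.49 to 4.12. Signs reversed for 4 genes that were not called, Cd68 (-0.012 to 0.31 with a library left out), Ccl22 (-0.081 to 0.74), Cd3g (-0.089 to 0.065) and Plvap (-0.047 to 0.65, and -0.33 with limma-voom and sample weights). The cause of these moves was not tested, apart from the number of genes kept by the stricter filter. Fcgr1 and Ms4a7 have few counts or none in the A20WT libraries. With counts thinned to the smallest library Ly6c2 was still called (log2 change 3.67, adjusted p = 0.00634).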
